A study of Rattus norvegicus with 60 samples.

Results

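Captured methylated DNA was set against uncaptured input DNA in rat hippocampal CA1 tissue at 24 h. The 10 captured libraries labelled 24 h and the 3 input libraries of that time were taken, which is 13 of the 60 samples of the series. Capture used a methyl-binding domain protein (the MethylMiner kit), which binds double-stranded DNA carrying 5-methylcytosine in CpG dinucleotides, and the fragments it holds were sequenced. Input is the same kind of DNA without that step. The captured libraries came from 3 threat, 4 place and 3 naive samples, and the input libraries carry no training label. All came from Sprague-Dawley rats of 90 to 120 d. The series describes training in recognising a threatening context, and its labels do not say further what the place and naive conditions were. At 1 h the same groups were sampled with the same numbers of libraries. Whether each library is a different rat is not stated, and p-values therefore cover the spread among these libraries, which may be technical.

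DNA methylation in mammals sits mainly on CpG dinucleotides. Most CpGs of the genome are methylated, while the CpG-rich islands at the starts of many genes, above all those in use in most cells, are usually not. Genes of the germ line are a known exception, in that many have CpG-containing promoters that are methylated in body tissues. Methylation also covers the transcribed bodies and ends of genes. Capture by a methyl-binding domain depends on the number of methylated CpGs in a fragment, so a stretch with few CpGs can be missed even where every one is methylated.

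The values are RPKM (reads per kilobase, scaled to the library total) in 5805202 full bins of 500 nt. The captured libraries held 42.0 to 58.4 M reads and the inputs 50.4 to 59.5 M, recovered from the deposited values. A median bin held 5 to 7 reads in a captured library and 9 to 10 in an input. No read fell in 12.6 to 17.6% of bins of the captured libraries and in 10.35 to 10.5% of bins of the inputs. In the RNA of the same groups the CA1 pyramidal cell markers Wfs1 and Mpped1 stood at 110 and 84.4 FPKM (fragments per kilobase, scaled to the library total) after threat at 24 h, at 128 and 87.6 FPKM after place at 24 h, and at 114 and 78.0 FPKM in naive tissue. Markers of other cells were present as well. In the threat, place and naive groups in that order, the astrocyte marker Gfap stood at 281, 324 and 301 FPKM, the CA3 marker Bok at 16, 18.6 and 15.6 FPKM, the dentate granule marker C1ql2 at 13.5, 9.32 and 8.95 FPKM and the choroid plexus marker Ttr at 28.8, 71.2 and 47.1 FPKM. The CA3 marker Iyd (0.00357 to 0.0405 FPKM) and the dentate marker Dsp (0.0495 to 0.0662 FPKM) were near 0. The part of these cells in the captured DNA was not tested.

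Promoters are shown for genes at both ends of the capture range. They were matched by gene symbol, so they need not lie exactly at the starts where capture was measured. They are 300 nt each, from 250 nt before to 50 nt after the start, from RefSeq (build GRCr8), printed 5′ to 3′ on the gene's strand with every CpG in capitals. The first 3 belong to genes whose start was richest in captured DNA, and the last 3 to genes whose start was poorest, among starts with a single RefSeq promoter.
Dazl, chr9:18193113-18193412 (+ strand): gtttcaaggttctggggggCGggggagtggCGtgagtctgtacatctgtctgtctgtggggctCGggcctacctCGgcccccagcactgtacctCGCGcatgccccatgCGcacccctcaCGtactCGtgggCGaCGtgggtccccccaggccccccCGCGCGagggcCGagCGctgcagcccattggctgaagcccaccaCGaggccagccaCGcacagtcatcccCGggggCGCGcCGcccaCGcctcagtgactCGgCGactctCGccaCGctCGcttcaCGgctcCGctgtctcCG
Uts2, chr5:166733421-166733720 (+ strand): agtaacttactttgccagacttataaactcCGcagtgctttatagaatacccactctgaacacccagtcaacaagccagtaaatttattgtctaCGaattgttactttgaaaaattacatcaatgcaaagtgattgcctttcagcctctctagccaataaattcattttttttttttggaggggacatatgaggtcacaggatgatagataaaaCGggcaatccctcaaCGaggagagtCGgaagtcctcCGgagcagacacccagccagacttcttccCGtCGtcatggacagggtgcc
Tktl2, chr16:27976275-27976574 (- strand): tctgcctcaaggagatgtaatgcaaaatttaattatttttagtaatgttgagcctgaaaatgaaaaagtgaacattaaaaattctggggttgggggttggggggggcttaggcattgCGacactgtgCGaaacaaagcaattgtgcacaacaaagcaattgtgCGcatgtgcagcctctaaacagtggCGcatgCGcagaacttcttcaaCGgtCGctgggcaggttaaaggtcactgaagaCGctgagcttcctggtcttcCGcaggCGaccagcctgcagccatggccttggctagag
Crot, chr4:26052874-26053173 (+ strand): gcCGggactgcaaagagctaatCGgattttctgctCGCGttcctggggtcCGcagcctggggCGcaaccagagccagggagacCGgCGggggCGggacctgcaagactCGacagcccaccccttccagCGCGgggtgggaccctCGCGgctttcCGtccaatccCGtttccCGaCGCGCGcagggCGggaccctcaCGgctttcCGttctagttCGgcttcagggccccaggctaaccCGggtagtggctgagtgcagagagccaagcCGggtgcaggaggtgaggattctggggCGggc
RT1-CE1, chr20:3564041-3564340 (- strand): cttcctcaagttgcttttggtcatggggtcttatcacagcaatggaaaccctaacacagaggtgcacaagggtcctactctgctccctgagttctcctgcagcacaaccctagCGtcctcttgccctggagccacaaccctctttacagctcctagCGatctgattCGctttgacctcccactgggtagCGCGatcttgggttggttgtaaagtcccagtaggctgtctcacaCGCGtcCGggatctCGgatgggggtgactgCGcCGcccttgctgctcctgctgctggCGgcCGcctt
Sult2a1, chr1:84638898-84639197 (- strand): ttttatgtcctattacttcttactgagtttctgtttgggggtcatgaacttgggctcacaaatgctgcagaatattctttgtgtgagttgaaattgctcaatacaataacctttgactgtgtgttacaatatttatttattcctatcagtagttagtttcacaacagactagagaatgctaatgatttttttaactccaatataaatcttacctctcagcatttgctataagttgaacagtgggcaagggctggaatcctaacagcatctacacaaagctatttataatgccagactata

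CpG number alone did not order these 6. Dazl, a germ cell RNA-binding protein, has 31 CpGs in its promoter and Crot, the peroxisomal carnitine octanoyltransferase, has 27, and they lie at opposite ends. Uts2, the vasoactive peptide urotensin 2, has 8 and Tktl2, a transketolase-like gene, has 10. RT1-CE1, a class I gene of the rat major histocompatibility complex, has 13 and Sult2a1, a sulfotransferase best known from liver, has 0. The start window of a gene is the bin that holds its start and the bin on each side of it, by the gene positions of the RNA table. Dazl's start window had 1.10, 1.37 and 2.23 RPKM as the lowest, median and highest of the 10 captured libraries, against 0.280, 0.385 and 0.275 RPKM in the 3 inputs. The groups did not overlap, and all 10 captured libraries lay above every input. Captured minus input was 1.56 ± 0.12 on the log2(RPKM + 0.25) scale (SE; limma adjusted p = 5.96e-18), on which the added 0.25 shrinks differences at low values. Crot's start window had 0.00919, 0.0638 and 0.101 RPKM in the captured libraries, against 0.731, 0.599 and 0.676 RPKM in the inputs. Every captured library lay below every input there, with a difference of -1.59 ± 0.10 log2 (limma adjusted p = 3.53e-20). Windows were tested where the mean of the captured and the input mean was at least 0.1 RPKM. Crot's captured mean was under that minimum, so it was tested through its input and had to be lower. Crot mRNA was at 6.68 FPKM and Dazl mRNA at 0.00213 FPKM, the mean of the threat 24 h, place 24 h and naive group means that is used for expression throughout.

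**Figure D1:**
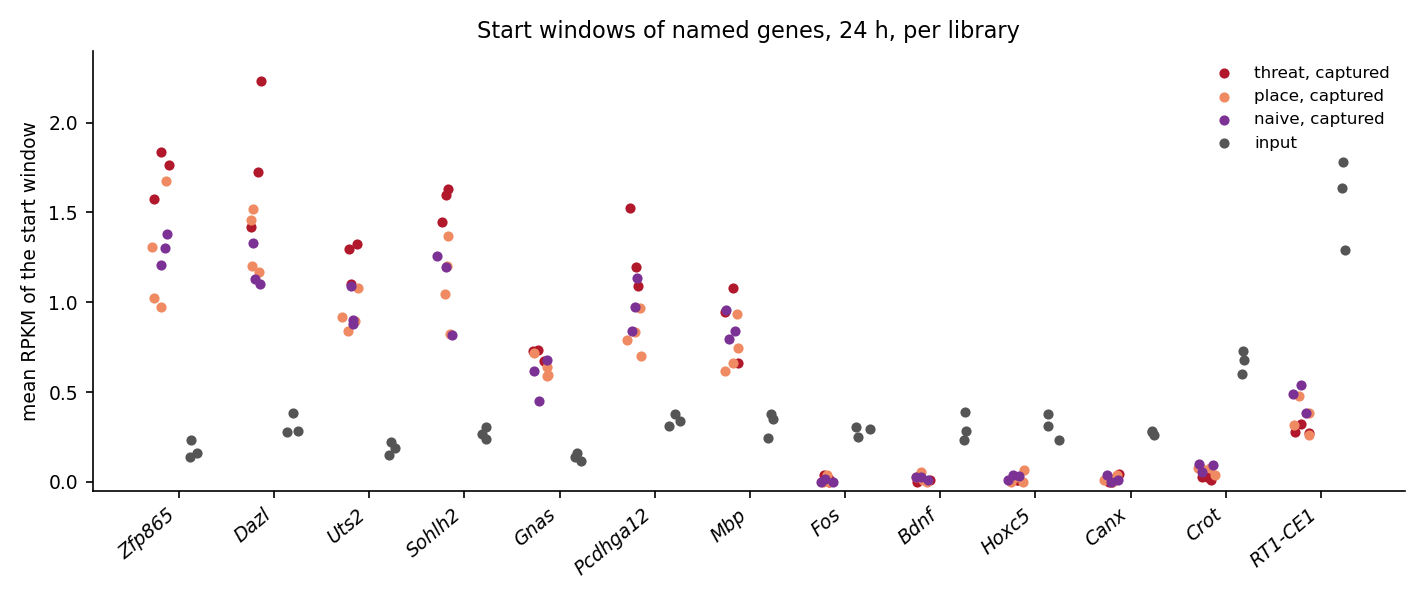
Mean RPKM of the start windows of 13 named genes at 24 h, 1 point a library, with captured libraries on the left of each pair and inputs on the right. Captured points lie above the inputs for the first 7 genes, such as Dazl with 1.10 to 2.23 RPKM, and below them for the last 6, such as Crot with 0.00919 to 0.101 RPKM.

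Across the genome captured DNA was higher than input in a minority of bins and lower in more. Of 4935818 bins with enough coverage (the mean of the captured and the input mean at least 0.1 RPKM), limma called 1041521 higher, which is 21.1%, and 1897939 lower, which is 38.5%, at an adjusted p of 0.05. The median difference was -0.18 log2, and 3.56% of tested bins were higher by over 1 log2. The edgeR quasi-likelihood test on recovered reads called 1025660 higher and 1932418 lower. With a minimum of 0.25 RPKM in place of 0.1, 2847794 bins were tested, of which 970593 were higher and 487003 lower. The minimum is on the mean of captured and input, which a bin low in captured libraries fails more readily. Without a minimum 956842 of 5805202 bins were higher and 1859384 lower. RPKM is relative to the library total, so a gain in some bins lowers the others, and no value here is an absolute methylation level.

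Gene starts were depleted and gene ends enriched. Relative coverage, the mean RPKM of a class of bins over the mean of all bins, was 0.854 ± 0.0328 in captured libraries (SD, n = 10) and 0.931 ± 0.0118 in inputs (SD, n = 3) at the 22575 bins with a gene start. At the 22553 bins with a gene end it was 1.42 ± 0.0572 in captured libraries and 1.07 ± 0.0031 in inputs. Captured and input libraries did not overlap in either class. Each gave an exact 2-sided permutation p of 0.00699, the smallest that 10 against 3 libraries allow, and 0.0081 when adjusted over the 22 classes. At ends the captured libraries of the threat group had 1.47, 1.48 and 1.53, those of the place group 1.36, 1.36, 1.39 and 1.44, and those of the naive group 1.37, 1.4 and 1.4. All 3 threat libraries lay above the other 7, a difference between the trained groups that was not tested.

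Within 10 kb of starts, the 24 h captured libraries were lowest in the bin 0.5 kb upstream of the start, at 0.728 to 0.754 against 0.976 to 0.995 in the inputs. Within 10 kb of ends they were highest in the bin 0.5 kb before the end, at 1.49 to 1.74 against 1.06 to 1.08 in the inputs. At 1 kb past the end captured coverage was down to 1.05 to 1.09, next to 1.04 to 1.06 in the inputs over all genes. Bins that overlap a gene had 1.14 to 1.18 in captured libraries and 1.08 to 1.09 in inputs. Bins over 100 kb from a gene had 0.808 to 0.850 in captured libraries and 0.922 to 0.929 in inputs. Deep gene bodies, at least 10 kb from both ends, differed least among these, at 1.10 to 1.13 in captured libraries and 1.09 to 1.10 in inputs. All 3 comparisons separated the groups (adjusted exact permutation p = 0.0081). With the median bin of a class over the mean of all bins, captured lay below input for bins overlapping a gene (-0.26 log2) and deep bodies (-0.30). The median bin of the whole genome was itself lower in captured libraries, with 5 to 7 reads against 9 to 10 in inputs. These medians therefore do not show depletion of either class relative to other bins. The class from 1 to 5 kb downstream of ends did not differ beyond its spread, at 1.03 to 1.05 in captured libraries and 1.04 to 1.05 in inputs (adjusted exact permutation p = 0.126).

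**Figure D2:**
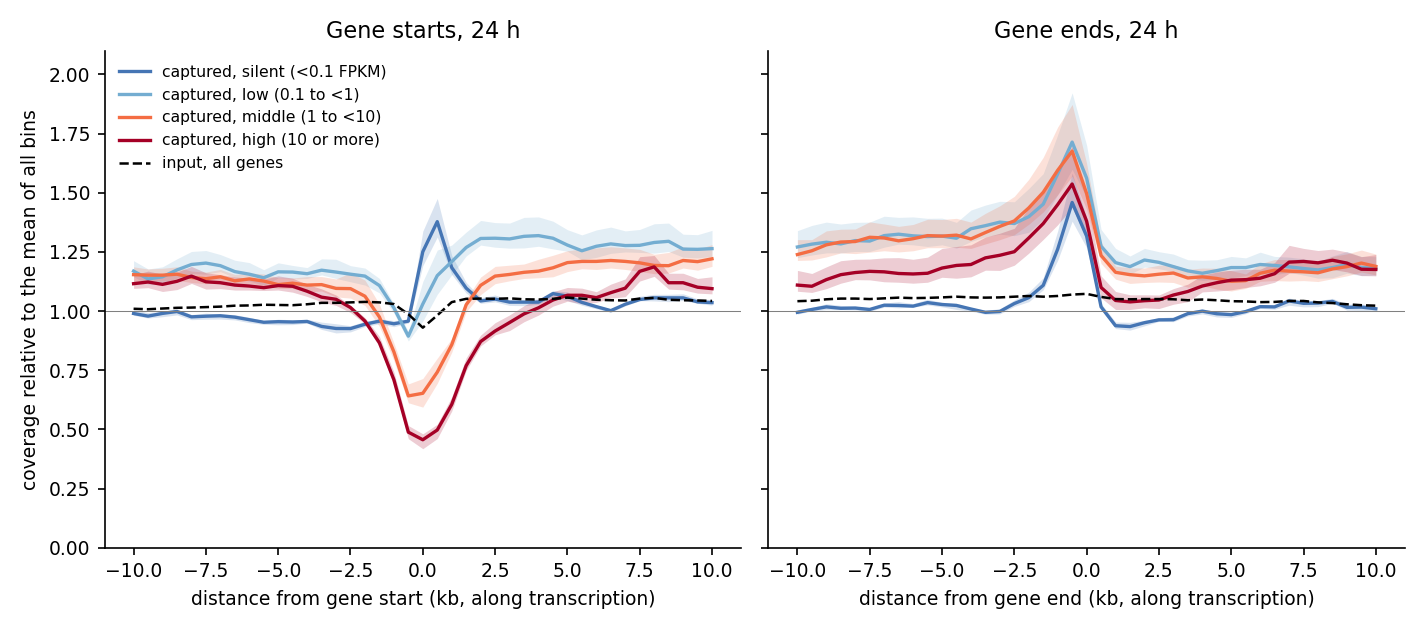
Coverage relative to the mean of all bins within 10 kb of gene starts (left) and ends (right) at 24 h, by expression of the host gene, as the mean of 10 captured libraries with shading from their lowest to their highest; the dashed line is the mean of the 3 inputs over all genes. Captured coverage dips to 0.457 at starts of high genes and peaks just inside the start of silent genes at 1.38, while all 4 groups of genes peak just before the end.

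Host gene expression ordered the starts. Genes were called silent below 0.1 FPKM (7365 genes), low below 1 (2859), middle below 10 (7101) and high from 10 up (5540). At starts of high genes relative coverage was 0.460 ± 0.0227 in captured libraries (SD, n = 10) and 0.832 ± 0.0168 in inputs (SD, n = 3), a ratio of 0.552. At starts of middle genes it was 0.658 ± 0.0342 in captured libraries and 0.893 ± 0.0166 in inputs. At starts of silent genes it was 1.25 ± 0.0480 in captured libraries and 1.02 ± 0.00263 in inputs, a ratio of 1.22. In these 3 classes the groups did not overlap (adjusted exact permutation p = 0.0081). At starts of low genes they did, with 0.959 to 1.13 in captured libraries and 0.955 to 0.988 in inputs, and the difference missed the threshold (adjusted exact permutation p = 0.0539). The input was itself lower at starts of high genes than at those of silent ones, with 0.812 to 0.842 at high and 1.02 to 1.03 at silent genes.

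The silent profile had a shape of its own. Captured coverage of silent genes peaked at 1.31 to 1.48 in the bin 0.5 kb inside the gene, where inputs had 1.04 to 1.05, and was back at 1.03 to 1.06 at 2 kb. High genes had 0.462 to 0.522 in the same bin and 0.983 to 1.05 at 4 kb. Past 2 kb inside the gene the order of the groups changed, since low genes had 1.27 to 1.4 at 4 kb, middle genes 1.14 to 1.22 and silent genes 1.03 to 1.05.

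Starts also differed by the number of CpGs in the promoter. A single RefSeq promoter was found by symbol for 11617 of the 22865 genes. Of these, 6785 had many CpGs (at least 15 in 300 nt), 2438 had some (6 to 14) and 2394 had few (up to 5). Many CpGs were found in 79.8% of promoters of high genes, 70.8% of middle, 41.5% of low and 14.4% of silent ones. Starts with many CpGs had a relative coverage of 0.344 ± 0.0155 in captured libraries and 0.802 ± 0.0209 in inputs, a ratio of 0.429. Starts with few CpGs had 1.07 ± 0.0149 in captured libraries and 1.04 ± 0.00591 in inputs. Starts with some had 0.948 to 1.14 in captured libraries and 0.942 to 0.963 in inputs, which overlap (adjusted exact permutation p = 0.0806). These class values are means over bins. With medians of bins instead, the starts of silent genes and those with some or few CpGs lay below input, by -0.19, -1.08 and -0.35 log2. These medians are over the mean of all bins, a measure by which the whole genome was lower in captured libraries too.

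**Figure D3:**
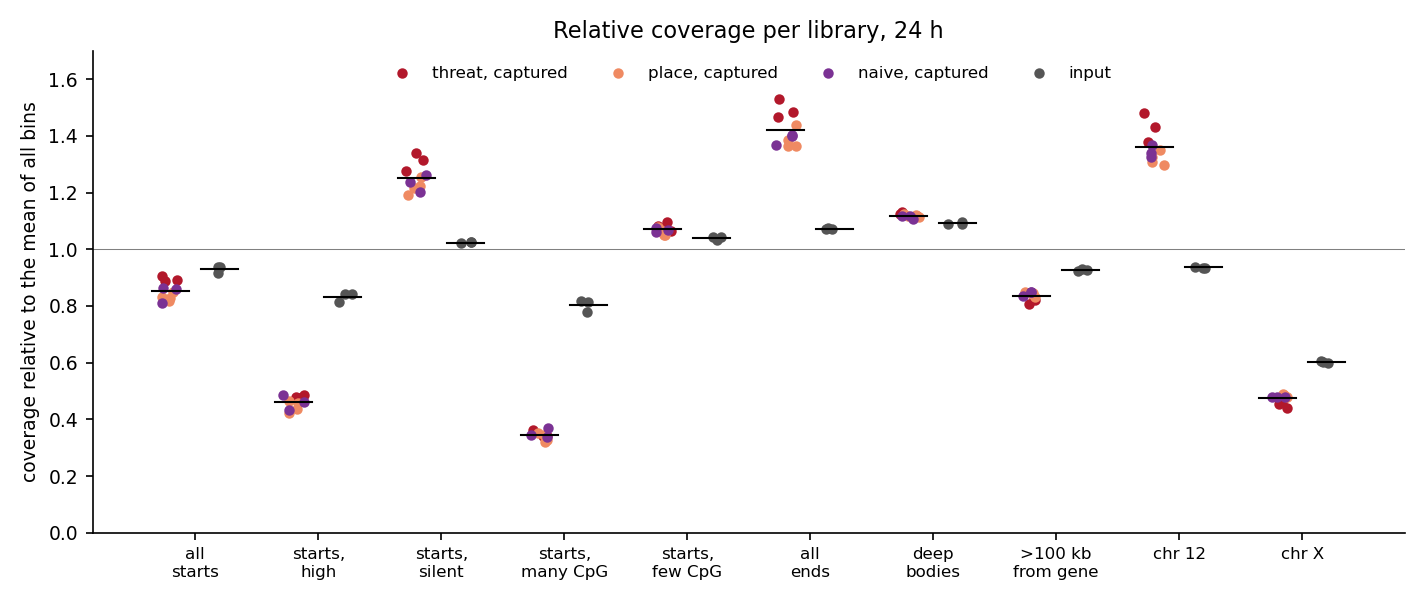
Coverage relative to the mean of all bins in 10 classes of bins at 24 h, 1 point a library, captured on the left of each pair and input on the right, with a line at the mean of each. Captured libraries lie at 0.320 to 0.371 for starts with many CpGs and at 1.36 to 1.53 for gene ends, apart from the inputs.

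Start windows of single genes were tested next. Of 22865 genes 20648 start windows passed the filter, 4860 were higher in captured libraries, which is 23.5%, and 11460 lower, which is 55.5%, with a median of -0.34 log2. Among high genes 12.3% of the 4780 tested starts were higher and 76.4% lower, and among silent genes 34.6% of 6888 were higher and 35.7% lower. Among starts with many CpGs 8.54% of 5928 were higher and 81.6% lower. With a minimum of 0.25 RPKM, 8216 start windows were tested, 4397 were higher and 1038 lower. Without a minimum 4843 of 22865 starts were higher and 13389 lower. Counts of lower starts therefore depend on the minimum, and a start that reached it only through input had to be lower.

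Within each class of CpG number, starts of high genes were called lower more often than those of silent genes. Among promoters with some CpGs, starts of silent genes were higher in 60.2% and lower in 14.4% of 631 tested, while those of high genes were higher in 9.88% and lower in 78.6% of 486. Among promoters with many CpGs, silent genes were lower in 60.5% of 309 and high genes in 86.5% of 2421. Among promoters with few CpGs, silent genes were lower in 36.8% of 1359 and high genes in 56.0% of 182. Across the 20648 tested starts the log2 difference had a Spearman correlation of -0.37 with FPKM. Across the 10589 with a promoter it had one of -0.36 with the CpG count. These describe genes of the same 13 libraries, which are not independent, and the CpG count and expression go together as given above.

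**Figure D4:**
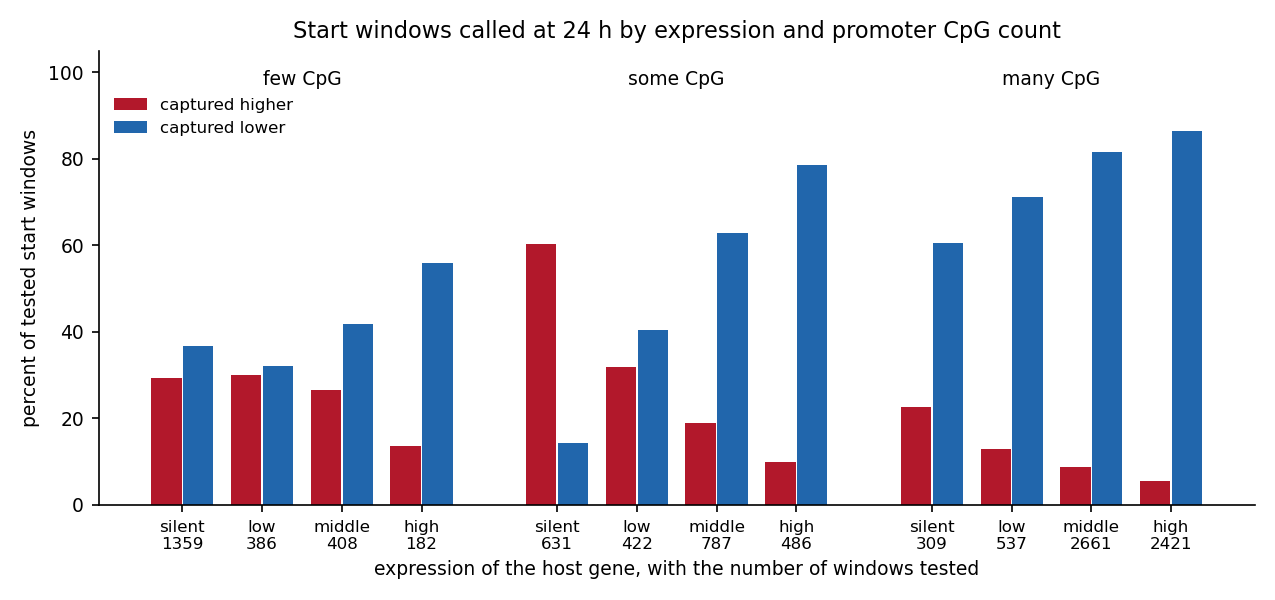
Percent of tested start windows called higher (left bar) or lower (right bar) in captured DNA than in input at 24 h, by host gene expression and promoter CpG count, with the number tested under each pair. Silent genes with some CpGs have 60.2% higher, and the share lower reaches 86.5% in high genes with many CpGs.

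Germ line genes, which act in egg and sperm formation and had a median mRNA level of 0.00543 FPKM here, were mostly richer in captured DNA at their starts. Of 46 tested, 40 were higher and 4 lower, against 23.5% and 55.5% of all starts, with a median of 0.87 log2. Their mean start window had 0.580 to 0.851 RPKM in captured libraries and 0.253 to 0.259 RPKM in inputs, without overlap. Sohlh2, a transcription factor of germ cell differentiation, had 0.816, 1.23 and 1.63 RPKM as lowest, median and highest captured value, against 0.240, 0.304 and 0.264 RPKM in the inputs (1.51 ± 0.12 log2, limma adjusted p = 1.88e-17). Pgk2, the testis form of phosphoglycerate kinase, was 1.41 ± 0.11 log2 higher, and Rpl10l, a ribosomal protein copy expressed in testis, 1.46 ± 0.12. The 4 that were lower were Tdrkh (-0.88), Tex14 (-0.47), Tex11 (-0.32) and Mageb16 (-0.28), and Mei1 and Stag3 passed in neither direction. All 4 lower genes are named because they are the exceptions, after their values were seen. In 3 of the 46 starts the captured mean was under the minimum, so these had to be lower. In 1 the input mean was under it, so that start had to be higher. Without a minimum 40 of 46 were higher and 4 lower. At their ends 18 of 46 germ line genes were higher and 17 lower, against 41.6% and 25.1% of all ends.

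Clustered protocadherins, cell surface proteins that neurons choose among by promoter, were higher at 29 of 42 starts and lower at 5 (median 0.40 log2), where 23.5% of all starts were higher and 55.5% lower. Their mean start window had 0.442 to 0.582 RPKM in captured libraries and 0.298 to 0.325 RPKM in inputs. Pcdhga12 had 0.700, 0.972 and 1.53 RPKM as lowest, median and highest captured value and 0.341, 0.313 and 0.380 RPKM in the inputs, with mRNA at 35.2 FPKM. Pcdhga8 was 1.06 ± 0.12 log2 higher, PCDHA4 1.02 ± 0.11 and Pcdha9 0.90 ± 0.11. The 5 lower ones, named after their values were seen, carry beta cluster symbols, namely Pcdhb9 (-0.55), Pcdhb12 (-0.44), Pcdhb4 (-0.30), Pcdhb19 (-0.29) and Pcdhb2 (-0.26). In 1 of the 42 starts the captured mean was under the minimum, so it had to be lower. Without a minimum 29 of 42 were higher and 5 lower.

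Hox genes, which pattern the body axis in the embryo, had little captured DNA at their starts, with a median mRNA level of 0 FPKM. The table holds 40 Hox genes, of which 22 starts were tested and all 22 were lower (median -0.85 log2), against 55.5% of all starts. In 21 of the 22 the captured mean was itself under the minimum, so they were tested through their input and had to be lower. Without a minimum limma called 38 of the 40 lower and 0 higher. Hoxc5 had 0, 0.0186 and 0.0654 RPKM as lowest, median and highest captured value and 0.310, 0.376 and 0.232 RPKM in the inputs (-1.03 ± 0.08 log2, limma adjusted p = 1.29e-17). Hoxc4 (-0.96), Hoxb13 (-0.88) and Hoxc11 (-0.98) were similar. By limma 26 of 28 tested Hox ends were lower and 0 higher (median -0.85 log2), where 25.1% of all ends were lower and 41.6% higher. An end that reached the minimum only through its input had to be lower too, and how many of the 28 did so was not counted. The mean tested Hox start window had 0.0300 to 0.0547 RPKM in captured libraries and 0.254 to 0.272 RPKM in inputs. Of 64 developmental transcription factors tested 53 were lower and 4 higher (median -0.68 log2), against 55.5% and 23.5% of all starts. In 50 of the 64 the captured mean was under the minimum, and without a minimum 65 of 76 were lower and 4 higher. Among the lower ones were the midbrain regulator Lmx1a (-1.002), the kidney and brain regulator Pax2 (-0.9999), the blood regulator Gata2 (-0.85) and Irx5 (-0.90). The 4 higher ones, named after their values were seen, were Eomes (0.27), Lmx1b (0.31), Hand1 (0.50) and Tbx4 (0.56).

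Housekeeping and activity-regulated genes were depleted. Of 30 housekeeping starts tested 28 were lower and 1 higher (Snrpd3, 0.33 log2, named after its value was seen), with a median of -0.82 log2, next to 55.5% lower and 23.5% higher among all starts. In 24 of the 30 the captured mean was under the minimum, and without a minimum 32 of 34 were lower and 1 higher. Among them were Rpl13a, a ribosomal protein (-1.13), Polr2a, the largest subunit of RNA polymerase II (-1.04), the chaperone calnexin Canx (-0.97) and the ATP synthase subunit Atp5b (-0.97). Of 25 immediate early genes, switched on within minutes of neuronal activity, 24 were lower and 0 higher (median -0.78 log2), against the same background. In 21 of the 25 the captured mean was under the minimum, and without a minimum limma called 29 of 30 lower and 0 higher. Their mean start window had 0.0470 to 0.0794 RPKM in captured libraries and 0.230 to 0.270 RPKM in inputs. Fos, a subunit of the AP-1 transcription factor, had 0, 0.00467 and 0.0389 RPKM as lowest, median and highest captured value, against 0.2504, 0.304 and 0.296 RPKM in the inputs (-1.02 ± 0.07 log2, limma adjusted p = 3.01e-19). Jun (-1.02), Fosb (-0.91) and Ier2 (-0.87) had like values. The exception was Nr4a2, an orphan nuclear receptor, at 0.01 log2 at its start. Its gene body was among the 10 most enriched, with 0.900, 1.07 and 1.45 RPKM as lowest, median and highest captured value against 0.285, 0.228 and 0.269 RPKM in the inputs (1.41 ± 0.09 log2, limma adjusted p = 3.46e-08).

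Of 27 memory genes studied for methylation 17 were lower and 3 higher (median -0.53 log2), a share lower near the 55.5% of all starts, of which 23.5% were higher. In 12 of the 27, Bdnf, Npas4 and Nr4a1 among them, the captured mean was under the minimum, so these had to be lower. Without a minimum 21 of 31 were lower and 3 higher. Bdnf, the neurotrophin gene, was lower at its annotated start, with 0, 0.0150 and 0.0560 RPKM as lowest, median and highest captured value and 0.391, 0.233 and 0.285 RPKM in the inputs (-1.04 ± 0.08 log2). Npas4 (-1.06) and Nr4a1 (-0.78), both activity-induced transcription factors, were lower as well. The 3 higher ones, named after their values were seen, were the demethylation enzymes Tet1 (0.42) and Tet3 (0.55) and the glucocorticoid receptor co-chaperone Fkbp5 (0.79).

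Starts of cell type genes were called in shares near those of all starts, of which 55.5% were lower and 23.5% higher. Among CA1 pyramidal cell genes 10 of 15 starts were lower and 4 higher, among oligodendrocyte genes 8 of 17 were lower and 3 higher, and among astrocyte genes 8 of 16 were lower and 3 higher. The captured mean was under the minimum in 7 of the CA1, 5 of the oligodendrocyte and 6 of the astrocyte starts tested, so these had to be lower. Without a minimum 14 of 20, 8 of 17 and 11 of 18 were lower in that order, and 4, 3 and 3 higher. The higher ones were Mpped1 (0.80), Hpca (0.73), Wfs1 (0.59) and Spink8 (0.31) of CA1 cells, Mbp, Sox10 (0.50) and Mag (0.25) of oligodendrocytes, and Aldh1l1 (0.39), Agt (0.29) and Acsbg1 (0.26) of astrocytes, all but Mbp named after their values were seen. Lower in captured DNA were Epha4 (-0.96), Man1a1 (-0.75) and Slc17a7 (-0.72), the vesicular glutamate transporter. Aldoc (-0.97), Gja1 (-0.89), Slc1a3 (-0.98) and Fgfr3 (-0.72) of astrocytes, and Gpr37 (-0.93), Ugt8 (-0.67) and Tspan2 (-0.72) of oligodendrocytes, were lower too. Mbp, the myelin basic protein, was higher, with 0.620, 0.818 and 1.08 RPKM as lowest, median and highest captured value and 0.350, 0.241 and 0.380 RPKM in the inputs (0.91 ± 0.12 log2, limma adjusted p = 4.12e-10). In bulk tissue an average over cell types is measured, and methylation in a few cells and weak methylation in many cannot be told apart.

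Imprinted genes, methylated on the allele of 1 parent, split into 18 higher and 14 lower starts of 37 tested (median 0.09 log2), beside 23.5% higher and 55.5% lower of all starts. In 10 of the 37 the captured mean was under the minimum, and without a minimum 18 of 38 were higher and 16 lower. Gnas, coding for the stimulatory G protein alpha subunit, was higher, with 0.452, 0.655 and 0.735 RPKM as lowest, median and highest captured value and 0.140, 0.161 and 0.116 RPKM in the inputs (1.19 ± 0.11 log2, limma adjusted p = 4.68e-15). Its symbol belongs to 2 genes of the table, and the other was higher by 0.91. Ube3a, a ubiquitin ligase silenced on the paternal allele in neurons, was lower by -0.84 ± 0.08 log2, Inpp5f by -0.72 ± 0.07 and Igf2 by -0.72 ± 0.08.

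Of 35 liver-specific genes 16 were higher and 8 lower (median 0.17 log2), again beside 23.5% and 55.5% of all starts. Among the higher ones were the haemoglobin-binding haptoglobin Hp (0.80), Apoh (0.79), the gluconeogenic enzyme Pck1 (0.75) and urate oxidase Uox (0.75). In 2 of the 35 the captured mean was under the minimum, and without a minimum 16 of 35 were higher and 8 lower. Of 1013 olfactory receptor starts tested, out of 1125 genes with such a symbol, 171 were higher and 515 lower (median -0.24 log2), against 23.5% and 55.5% of all starts. In 200 of the 1013 the captured mean was under the minimum, and without a minimum 170 of 1125 were higher and 579 lower. Olr1638 (1.37) and Olr1108 (1.26) were higher and Olr1156 (-1.10) and Olr1159 (-0.96) lower. These receptors form a large family of like sequence, and how reads of near copies were assigned is not given in the sources used here.

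The other start windows with the largest differences were mostly of genes with little mRNA. The highest was at 1 of the 2 genes under the symbol Zfp865, with 0.971, 1.34 and 1.84 RPKM as lowest, median and highest captured value and 0.140, 0.233 and 0.159 RPKM in the inputs (1.95 ± 0.12 log2, limma adjusted p = 5.59e-21). The other gene of that symbol, on the opposite strand, was at -0.29 ± 0.10. Gnaz, a G protein alpha subunit of neurons, was 1.65 ± 0.12 log2 higher with mRNA at 17.7 FPKM. Kif2b, a kinesin (1.52), and the unnamed loci RGD1562431 (1.82), RGD1563746 (1.54) and RGD1563747 (1.498) had an mRNA level of 0 to 2 decimals. The lowest was RGD1564915 at -2.10 ± 0.11 log2, with 0.0643, 0.0893 and 0.159 RPKM in captured libraries and 1.21, 1.404 and 1.204 RPKM in the inputs. Sulfotransferases and immune genes of multigene families were among the lowest too, namely ste2 (-1.86), Sult1c2a (-1.70), Sult2a1 (-1.49), RT1-CE1 (-1.55) and RT1-CE7 (-1.46), with the zinc finger gene Zfp967 (-1.44), the cytochrome Cyp2c7 (-1.38) and Rup2 (-1.38). The symbol Sult1c2a belongs to 2 genes of the table, and the start of the other was at -0.03 log2. Several of these have near copies and input well above the genome mean, so their values are uncertain. At the Cyp2c7 start the captured mean was under the minimum, so it had to be lower.

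Gene ends were called higher more often than starts. Of 22213 end windows tested 9251 were higher, which is 41.6%, and 5585 lower, which is 25.1%, with a median of 0.13 log2. When libraries were scaled by median ratios over ends, 6985 were higher and 7591 lower, and the median was -0.02. Ends of low genes were higher in 49.7% and those of silent genes in 35.7%, while high genes had 39.3%. The Spearman correlation with FPKM over the 22213 ends was 0.05. Sertad4, a SERTA domain gene, had 1.34, 1.83 and 2.72 RPKM as lowest, median and highest captured value at its end and 0.350, 0.438 and 0.539 RPKM in the inputs (1.64 ± 0.11 log2, limma adjusted p = 6.9e-23). The NMDA receptor subunit Grin3b (1.62), the thrombin receptor F2r (1.57), the protein kinase C theta gene Prkcq (1.56), Cdsn (1.69), Mbrl (1.697), Pus7l (1.6), Hexim2 (1.58) and Apba3 (1.55) were next to it, as was the end of the Zfp865 gene above (1.83). Lower ends included those of Ttyh1, a membrane protein gene of the tweety family with 224 FPKM (-1.20), Dgcr8, the microRNA processing partner of Drosha (-1.19), Acer1, an alkaline ceramidase (-1.58), Sult1c2 (-1.33), Sult2a1 (-1.26), Zfp677 (-1.25), Ssna1 (-1.23), Sult1c2a (-1.21) and Pnrc2 (-1.19). The symbol Sult1c2 belongs to 3 genes of the table and Sult1c2a to 2, and the values are of 1 gene each. Gpd1, which the table places on chromosome X, was also lower (-1.18). At the ends of Zfp677, Ssna1, Ttyh1, Pnrc2, Dgcr8 and Gpd1 the captured mean was under the minimum, so these had to be lower. The ends of Grin3b and Mbrl lie in adjacent bins, so their windows overlap and hold much the same region. The end window of Ssna1 also covers its start, and the start and end windows of Zfp865 share a bin.

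Gene bodies were tested over bins at least 2 kb from both ends. Of 15330 bodies tested 7542 were higher, which is 49.2%, and 4921 lower, which is 32.1% (median 0.09 log2). When libraries were scaled by median ratios over bodies, 6157 were higher and 6296 lower. Bodies of low genes were higher in 62.8% and those of high genes in 40.5%. Of the 13820 genes with both windows tested, 3892 were lower at the start and higher in the body, and 359 were the other way round. Rfc3, a clamp loader subunit of DNA replication, had 0.894, 1.13 and 1.49 RPKM over its body as lowest, median and highest captured value and 0.260, 0.335 and 0.254 RPKM in the inputs (1.43 ± 0.08 log2, limma adjusted p = 1.94e-08). Pars2 (1.66), Tmem247 (1.66), Pkdrej (1.47), the dentin gene Dspp (1.44), the pancreatic enzyme gene Ctrb1 (1.405), the keratin Krt24 (1.38) and RGD1561149 (1.38) were higher as well. The RNA helicase Ddx5, at 132 FPKM, had 0.0190, 0.0549 and 0.0934 RPKM as lowest, median and highest captured value and 0.401, 0.353 and 0.428 RPKM in the inputs (-1.06 ± 0.07 log2, limma adjusted p = 4.95e-08). The RNA-binding protein Hnrnpu (-1.01), Mycn (-1.09), Mafg (-1.10), Fbxo2 (-1.06), Spsb3 (-1.15), Art1 (-1.05), Chac2 (-0.9982), the placental hormone gene Prl3d1 (-1.32) and Olr1585 (-0.99) were lower. In all of these lower bodies, Ddx5 included, the captured mean was under the minimum, so they were tested through their input and had to be lower. The body of RGD1563747, at 19.8 to 27.8 RPKM in captured libraries and 6.07 to 6.40 RPKM in inputs, is a single bin of high input (1.84 ± 0.64 log2, limma adjusted p = 0.0193). Leaving out any one input library ended that call (limma adjusted p = 0.127 to 0.139).

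Chromosomes differed in how much captured DNA they took. On chromosome 12 relative coverage was 1.36 ± 0.0576 in captured libraries and 0.936 ± 0.00209 in inputs, and on chromosome 20 it was 1.22 ± 0.0304 in captured libraries and 0.990 ± 0.00133 in inputs. On chromosome X it was 0.474 ± 0.0151 in captured libraries and 0.602 ± 0.00438 in inputs (SD, n = 10 and 3). Captured and input libraries differed on all 21 chromosomes (adjusted exact permutation p = 0.00734, and 0.014 on chromosome 8). The log2 difference was 0.54 on chromosome 12, 0.30 on chromosome 20 and -0.35 on chromosome X, and between -0.12 (chromosome 2) and 0.15 (chromosome 19) on the others. With medians of bins over the mean of all bins the chromosome 20 value was -0.093. By that measure the whole genome was lower in captured libraries too.

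A small set of bins had high mean coverage in both captured libraries and inputs. In 13240 bins the input mean was over 5 times that of all bins, and relative coverage there was 21.2 ± 1.26 in captured libraries and 11.5 ± 0.151 in inputs. The mean hides a split, since 8439 of them had less captured than input coverage, 2447 had over 2 times as much, and the median ratio was 0.706. The same 24 h inputs chose these bins, and a choice by high input can lower the captured over input ratio. The highest bin, chr7:22491501-22492000 in the coordinates of the deposited table, which fit rat build rn5, overlaps no gene and had 671 RPKM in captured libraries and 143.5 RPKM in inputs. The same bin had 39.3 RPKM in captured libraries and 24.6 RPKM in inputs at 1 h. Of the high-input bins 16.7% overlap a gene.

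The capture share was lower at 24 h than at 1 h. At 1 h 350378 bins had a captured mean of at least 1 RPKM and at least 2 times the input mean, which is 6.04% of bins. The 24 h libraries, which played no part in that choice, held 20.7 ± 2.09% of their reads there (SD, n = 10 captured) against 7.60 ± 0.00925% in the 24 h inputs (SD, n = 3), a ratio of 2.72. At 1 h the captured libraries that chose the bins held 47.8 ± 4.67% and the inputs 11.9 ± 0.311%, a ratio of 4.01. The 24 h captured libraries lay at 18.0 to 24.5% and those of 1 h at 41.8 to 55.3%, so the times did not overlap (exact 2-sided permutation p = 1.08e-05, the smallest that 10 against 10 allow). Choosing the bins by the 1 h libraries raises the share at 1 h, so that p is not free of the choice. With bins chosen at 24 h by the same rule, of which there were 85335, the shares were 10.5 ± 1.14% at 24 h and 15.97 ± 1.57% at 1 h (exact 2-sided permutation p = 1.08e-05). That choice favours the share at 24 h, which was still the lower. The captured over input ratio at 24 h minus that at 1 h was -0.56 log2 for the bins chosen at 1 h (exact permutation p = 0.16) and -0.35 log2 for those chosen at 24 h (exact permutation p = 0.0632), and neither passed the threshold. That test permutes time within captured and within input libraries, so a shift between times shared by both makes it less able to pass. It does not show that the ratio was unchanged. Within 24 h the threat libraries held 22.04 to 24.5%, place 18.0 to 20.6% and naive 18.9 to 20.9%, and the threat libraries did not overlap the others. The 2 times share no library, so time and anything else that differed between the sets of libraries, such as depth, cannot be told apart.

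**Figure D5:**
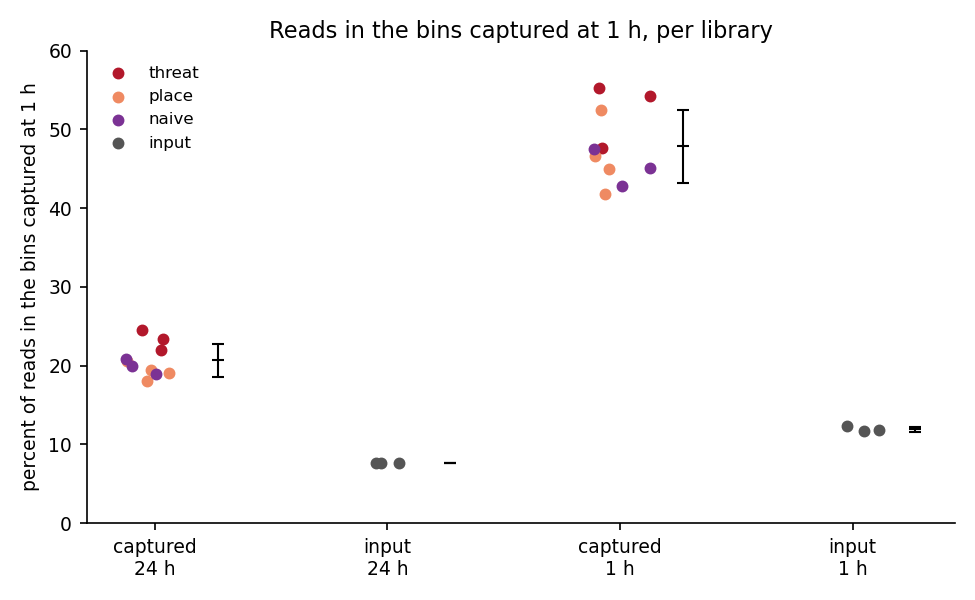
Percent of reads that fell in the 350378 bins captured at 1 h, 1 point a library, for captured and input libraries of 24 h and of 1 h, with the mean and SD beside the points. The 24 h captured libraries lie at 18.0 to 24.5%, between their inputs near 7.60% and the 1 h captured libraries at 41.8 to 55.3%.

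The same bins were nonetheless enriched at 24 h. Of the 350253 tested 91.4% were called higher than input, against 21.1% of all bins, and 0.0725% lower. Across the 19250 start windows tested at both times the log2 differences had a Pearson correlation of 0.89, and of the 14015 called at both 98.3% had the same sign. The windows of the 2 times share no library, but they share the genome and its CpG content. The test of the difference itself called 9867 of 21423 start windows with a larger value at 24 h, which is 46.1%, and 2558 with a smaller one, which is 11.9%. The direction here is of the effect, so a start depleted less at 24 h counts as larger. For ends these were 5919 (27%) and 4190 (19.1%) of 21952, and for bodies 5430 (35.7%) and 3841 (25.3%) of 15195. The median difference between the times was 0.29 log2 over starts, 0.11 over ends and 0.04 over bodies. Scaling by median ratios turned the balance for bodies, to 3087 and 5310. Germ line starts had a median of 0.87 log2 at 24 h and 1.81 at 1 h, and Hox starts -0.85 at 24 h and -1.17 at 1 h, so both lay closer to input at 24 h. At 1 h 21.6% of all starts tested were higher and 65.2% lower, while 45.4% of bodies were higher and 40% lower. The inputs differed between times too. Gene start bins had 0.917 to 0.939 in 24 h inputs and 1.35 to 1.42 in 1 h inputs, and gene end bins 1.07 to 1.08 in 24 h inputs and 1.28 to 1.31 in 1 h inputs. What part this has in the differences between times was not tested.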

How the data were processed

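Captured and input libraries were analysed as the signal deposited by the authors, coverage per 500 nt bin in a table titled RPKM, and RNA libraries as the FPKM deposited by the authors. TopHat 1.4.0, Bowtie, DESeq2, edgeR, mm10 and rn5 are named in the submitters' processing notes without roles. The tables are titled GRCm38, but chromosome ends lie as in rat rn5, and treatment of duplicate reads is not given in the sources used here. Every value was a whole number of reads (100% within 0.1 of a read), so counts were recovered from the deposited signal. The 21 bins shorter than 500 nt were not used.

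Log2(RPKM + 0.25) was fitted with limma 3.58.1 (R 4.3.3) over the 13 libraries, as the equally weighted mean of the 3 captured groups minus input, where the mean of both was at least 0.1 RPKM, with Benjamini-Hochberg adjustment at 0.05. edgeR 4.0.16 on recovered reads was an alternative, with other pseudocounts, minimums, scalings, window sizes and each library left out. Classes of bins were compared by exact permutation of libraries (scipy 1.17.1). The fits were tested on simulated data. Named genes are the 10 largest called differences in each direction and window type whose libraries do not overlap, among genes with a symbol, and up to 4 members of each list with the lowest p at the start. The members and lists were chosen with earlier results of these data known. RefSeq promoters (GRCr8) were matched by symbols unique in both tables, and no coordinates were converted between builds.

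One gene that the naming rule selects is not reported here.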

Additional observations from a re-analysis of the deposited data

Results flagged for a closer look

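Within the 4 place libraries of 24 h, 6 of 133 sets of values had a library far from the other 3, where chance gives about 1 in 20. Replicate 3 had the lowest relative coverage of body bins of silent genes, 1.074, with the next at 1.085. At the Crot start replicate 2 had 0.0393 RPKM and the next library 0.0746 RPKM. At the Grin3b end replicate 2 had 0.954 RPKM and the next 1.11 RPKM. At the Mafg body replicate 4 had 0 RPKM and the next 0.0280 RPKM, while at the Fbxo2 body replicate 4 was highest with 0.0379 RPKM, above 0.0295 RPKM. At the Pax2 start replicate 3 was highest with 0.0280 RPKM, and the next had 0 RPKM.

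The captured minus input difference differed between 24 h and 1 h for 2 of the 22 classes of bins and for 3 of the 21 chromosomes. The test permutes time within captured and within input libraries, so a shift between times shared by both makes it less able to pass. A class that did not pass is not shown to be unchanged. Gene ends did not (adjusted exact permutation p = 0.393), with captured over mean input at 0.345 to 0.511 log2 at 24 h and 0.592 to 0.819 at 1 h. The 24 h minus 1 h effect was -0.12 log2 in body bins of silent genes and 0.78 in bins of high input, each with an adjusted exact permutation p of 0.0241. It was 0.11 log2 on chromosome 1 (adjusted exact permutation p = 1.14e-05), -0.062 on chromosome 5 (adjusted exact permutation p = 0.000244) and -0.04 on chromosome 16 (adjusted exact permutation p = 0.00156). The bins of high input were chosen by the 24 h inputs that also enter their difference, so that p is not free of the choice.

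Of 109 named windows 71 also differed between the times, by limma's test of the difference with Benjamini-Hochberg adjustment, and values in parentheses are the 24 h effect minus the 1 h effect on the log2 scale. In 62 of them the effect was smaller in size at 24 h and in 9 it was larger. Among the 9 larger, the Olr1156 and Olr1159 starts, Zfp677 and Pnrc2 ends and Prl3d1, Chac2 and Olr1585 bodies missed the coverage minimum at 1 h. The added 0.25 RPKM shrinks differences at such low coverage. At start windows the difference from input was higher at 24 h than at 1 h for Crot (0.51), RT1-CE1 (1.23), RT1-CE7 (0.71), Ube3a (0.58), Inpp5f (0.28), Igf2 (0.65), Canx (0.34), Atp5b (0.26), Fos (0.70), Jun (0.58), Ier2 (0.58), Hoxc4 (0.31), Hoxb13 (0.30), Hoxc11 (0.40), Lmx1a (0.54), Gata2 (0.54), Man1a1 (0.47), Gpr37 (0.54), Tspan2 (0.76), Aldoc (0.57), Fgfr3 (1.11), Apoh (0.50), Bdnf (0.33) and Nr4a1 (0.95). At start windows the difference from input was lower at 24 h than at 1 h for Zfp865 (-1.15), RGD1562431 (-1.05), Gnaz (-1.18), Dazl (-1.26), RGD1563746 (-1.29), Tktl2 (-1.44), Kif2b (-0.63), Sohlh2 (-1.35), Cyp2c7 (-0.42), Gnas (-0.93), Rpl10l (-1.20), Pgk2 (-0.68), Mbp (-0.50), Hp (-0.82), Olr1156 (-0.57), Olr1159 (-0.30), Olr1108 (-0.66) and Pcdhga12 (-1.002). At end windows the difference from input was higher at 24 h than at 1 h for Acer1 (0.50), Ssna1 (0.45), Ttyh1 (0.36) and Dgcr8 (0.45). At end windows the difference from input was lower at 24 h than at 1 h for Zfp865 (-1.10), Mbrl (-1.18), Cdsn (-0.71), Grin3b (-1.17), Pus7l (-1.14), Hexim2 (-0.97), F2r (-0.99), Prkcq (-0.66), Apba3 (-1.12), Zfp677 (-0.65) and Pnrc2 (-0.58). At body windows the difference from input was higher at 24 h than at 1 h for Mafg (0.48), Fbxo2 (0.61) and Ddx5 (0.79). At body windows the difference from input was lower at 24 h than at 1 h for Tmem247 (-1.03), Pars2 (-0.34), Pkdrej (-0.55), Dspp (-0.47), Rfc3 (-0.86), Ctrb1 (-0.49), Krt24 (-0.89), RGD1561149 (-0.69), Prl3d1 (-0.75), Chac2 (-0.27) and Olr1585 (-0.32). Where captured values lie near 0, as at the Fos and Hoxc4 starts, input sets how low the log2(RPKM + 0.25) effect can go. Time and whatever else differed between the 2 sets of libraries cannot be told apart in these windows.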

How the results depend on the processing

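Counts of lower calls depended on the coverage minimum. At 0.25 RPKM, which tests fewer bins and windows, limma called 487003 bins, 1038 starts, 1802 ends and 2743 bodies lower. Median-ratio scaling gave 3087 bodies with a higher effect at 24 h than at 1 h, and split starts into 6257 higher and 9806 lower. Medians of bins in place of means put captured below input for bins overlapping a gene (-0.26), deep bodies (-0.30), bodies of middle (-0.20), low (-0.083) and silent genes (-0.38), starts of low (-0.70) and silent genes (-0.19), starts with some (-1.08) and few CpGs (-0.35), bins of high input (-0.41) and chromosome 20 (-0.093), and the class downstream of ends became a call (-0.36). These medians are over the mean of all bins, and the median bin of the whole genome was itself lower in captured libraries than in inputs. Without bins of high input the differences were -0.00442 upstream of starts, 0.0174 downstream of ends, -0.013 in bodies of high genes, 0.0832 at starts of low genes and 0.12 at starts with some CpGs. Starts of low genes passed the threshold with the replicate block (0.0933) and with naive RNA alone (0.0899). The cause of these changes was not tested.

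Leaving out 1 library at a time gave 908512 to 1042851 higher and 1677746 to 1899239 lower bins, 4475 to 4876 higher and 10856 to 11460 lower starts, 8454 to 9271 higher and 4998 to 5587 lower ends, and 7231 to 7561 higher and 4643 to 4944 lower bodies. The share of reads in captured bins differed by -27.8 to -26.4 points. Downstream of ends the range was -0.0123 to -0.00686 and passed the threshold without place replicate 3, starts of low genes had 0.0675 to 0.0932 and passed without place replicate 4, and starts with some CpGs had 0.0678 to 0.0972 and passed without place replicate 3 or 4.

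The bin deviations of same-numbered libraries had r = -0.00467 to 0.0489 over 18 pairs, so the numbers were not taken as pairs, although replicate 1 held the highest share of reads in captured bins within each captured group of 24 h (threat 24.5%, place 20.6%, naive 20.9%). With the number as a block limma called 4894 starts higher and 11479 lower. A test chosen after seeing the data, of each captured library's ratio to the mean input of its own time, called 20 of the 22 classes different between 24 h and 1 h, all but gene start bins and starts of high genes, where the planned permutation called 2. Among the 20 were gene ends (-0.27), starts of silent genes (-0.27) and starts with many CpGs (0.29). Of 109 named windows, 108 kept direction and call in every setting run, and RGD1563747 (body) lost its call in 6.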
